A study of Mus musculus with 17 samples.

Results

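Marco, Chil3, Ear2, Car4, Fabp4, Pparg, Siglecf, Abcg1 and Cidec are genes by which alveolar macrophages, the resident phagocytes of the airspace, are commonly recognised in mouse lung. These 9 genes were chosen by symbol from the 55421 genes of the deposited count table, and each symbol matched 1 row. All 9 had a CPM (counts scaled to the library's total) above 10 in at least 2 libraries and so passed the filter on low values, which kept 10481 genes. They were followed across 17 lung fibroblast cultures, 1 per mouse, in which macrophages are a cell type other than the one the labels name.

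Alveolar macrophages clear inhaled particles, bacteria and surfactant lipid. Their identity depends on GM-CSF and TGF-β signalling, which induce the nuclear receptor PPARγ, encoded by Pparg, and much of their gene program handles lipid. In bleomycin injury, resident alveolar macrophages fall in number and monocyte-derived cells enter the airspace, which is known from work on whole lung rather than from these cultures.

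The study asked what loss of the receptor tyrosine kinase EphB4 from Col1a2-expressing cells does to fibrosis after bleomycin, a DNA-damaging drug that scars the lung. All 17 mice carried floxed Ephb4 alleles and the Col1a2-CreERT2 transgene (Ephb4f/f; Col1a2-CreERT2), in which the Col1a2 promoter limits the inducible recombinase to collagen-producing cells. At 4 weeks of age they received 4-hydroxytamoxifen, 1 mg per day for 5 days (Ephb4 CKO), or corn oil (Ephb4 control), so the genotype groups also differed in the drug given. At 6 weeks they received bleomycin (1.2 U/kg, intratracheal) or PBS, and 14 days later lung cells were put in culture and passaged 1 time. This gave 4 libraries of Ephb4 control mice with PBS, 4 of Ephb4 control mice with bleomycin, 5 of Ephb4 CKO mice with PBS and 4 of Ephb4 CKO mice with bleomycin, and mice are numbered within each group only to name them.

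Total counts per library ranged from 66540022 to 120554468 (median 93075927), and the 9 genes together took from 0.0281% to 0.762% of a library's counts. Ephb4 itself, in CPM scaled by trimmed mean of M values (TMM), measured 16.2 ± 15.5 (SD, n = 4) in Ephb4 control PBS, 39.0 ± 21.6 (n = 4) in Ephb4 control bleomycin, 9.79 ± 8.20 (n = 5) in Ephb4 CKO PBS and 9.77 ± 3.76 (n = 4) in Ephb4 CKO bleomycin. After bleomycin its log2 difference between genotypes was -1.998 (SE 0.79) with an edgeR adjusted p of 0.22, and the highest Ephb4 CKO library lay above the lowest Ephb4 control library. Lyz2, the lysozyme gene of macrophages, was present in every library at 875 to 37377 CPM, while the fibroblast collagen gene Col1a1 ranged from 0.365 to 2269 CPM. In 3 libraries, namely mouse 2 of Ephb4 control bleomycin and mice 1 and 2 of Ephb4 CKO bleomycin, Xist and Y-linked genes went against the labelled sex. Animal numbers in the labels fall in 2 series, beginning 4C11 and 4C12 (series 11 and 12 below). Series 11 holds no Ephb4 control bleomycin library.

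Compared per length of transcript (RPKM, median over 17 libraries), the 9 genes spanned a wide range. Chil3 was highest at 549 RPKM, followed by Marco at 128, Ear2 at 119.7, Abcg1 at 65.8, Siglecf at 41.1, Fabp4 at 26.2, Pparg at 25.8, Cidec at 2.28 and Car4 at 2.11. The neighbours Marco and Ear2, Fabp4 and Pparg, and Cidec and Car4 differed by far less than each varied between libraries. In Ephb4 control bleomycin cultures the order changed for Marco, which stood at rank 7 with a median of 8.71 RPKM. Between libraries the levels varied widely. The highest library exceeded the lowest 37.9-fold for Pparg, 45.8-fold for Abcg1, 94.5-fold for Fabp4, 111-fold for Chil3, 278-fold for Cidec, 515-fold for Marco and 2460-fold for Ear2. For Car4 no such fold is given, since 1 library held 0 counts.

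Marco and Siglecf are surface receptors. Marco encodes a scavenger receptor that binds particles and bacteria (GRCm38 chr1:120474538-120505024, minus strand). Its level in Ephb4 control PBS mice 1 to 4 was 421, 2326, 183 and 738 CPM. In Ephb4 control bleomycin mice it was 4.67, 15.8, 17.8 and 44.5 CPM. Every bleomycin library of the Ephb4 control mice thus lay below every PBS library. Of these, PBS mice 2 to 4 were of series 11, whereas PBS mouse 1 and all 4 bleomycin mice were of series 12. In Ephb4 CKO PBS mice 1 to 5 it was 101, 267, 849, 497 and 246 CPM. In Ephb4 CKO bleomycin mice it was 24.0, 4.52, 739 and 486 CPM. Mouse 1 lay in the range of the Ephb4 control bleomycin libraries, mouse 2 just below it, and mice 3 and 4 far above it. The group means were 917 ± 967, 20.7 ± 16.9, 392 ± 292 and 313 ± 360.5 CPM in the same order (SD, n = 4, 4, 5 and 4).

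Marco had the largest differences of the 9 genes. In Ephb4 control mice its log2 fold change for bleomycin against PBS was -5.47 (SE 1.40), with an adjusted p of 0.268 in edgeR's quasi-likelihood test. After bleomycin its log2 difference of Ephb4 CKO against control was 3.92 (SE 1.30, edgeR adjusted p = 0.208). Neither passed the threshold in edgeR, whereas DESeq2 called both (adjusted p = 0.000236 for bleomycin and 0.0182 for genotype). The high values of the Ephb4 CKO bleomycin group were those of mice 3 and 4, both of series 11. Among series 12 libraries alone, which hold the 4 Ephb4 control bleomycin mice and mice 1 and 2 of the Ephb4 CKO bleomycin group, the difference of Marco was -0.50.

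Siglecf encodes a sialic acid-binding receptor shared by alveolar macrophages and eosinophils (chr7:43351341-43359531, plus strand). Its level was 45.4 to 179 CPM in Ephb4 control PBS, 1.01 to 104 in Ephb4 control bleomycin, 1.90 to 182 in Ephb4 CKO PBS and 52.2 to 149.8 in Ephb4 CKO bleomycin. The 4 groups overlapped. Its log2 fold changes were -1.10 (SE 1.11) for bleomycin in Ephb4 control mice and 0.88 (SE 1.11) for genotype after bleomycin, neither larger than its standard error. Eosinophil genes summed to at most 8.06 CPM in any library, and Epx, the eosinophil peroxidase gene, was at 0 in 15 of 17 libraries.

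Chil3 and Ear2 encode secreted proteins. Chil3 (chr3:106147554-106167564, minus strand) makes a chitinase-like lectin of activated and alveolar macrophages, and Ear2 (chr14:44102654-44103534, plus strand) a ribonuclease of the eosinophil-associated family. Both have near-identical copies, so that the way coverage was divided between copies enters their counts. The longest stretch of coding sequence that Chil3 shares letter for letter with Chil4 is 136 bases, in exons 9 and 10 (GRCm38 chr3:106148634-106148850, minus strand, spliced), and the longest that Ear2 shares with Ear10 is 185 bases, in exon 2 (chr14:44102975-44103159, plus strand), of which the 96 bases in capitals occur in Ear1 as well. Both are shown because a read of 75 bases can fall wholly inside either.
Chil3 and Chil4: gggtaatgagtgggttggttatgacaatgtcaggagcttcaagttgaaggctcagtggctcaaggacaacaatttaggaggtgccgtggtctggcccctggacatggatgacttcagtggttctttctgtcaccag
Ear2 and Ear10: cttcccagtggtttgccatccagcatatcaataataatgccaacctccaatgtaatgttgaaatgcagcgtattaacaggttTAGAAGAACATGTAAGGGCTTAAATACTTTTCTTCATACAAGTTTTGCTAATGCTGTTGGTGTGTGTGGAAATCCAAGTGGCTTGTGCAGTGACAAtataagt

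Each gene was compared only with named genes of its own family. Of the 75-base windows of its transcript, Chil3 shared 7.78% (125 of 1606) with Chil4. Ear2 shared 22.0% (142 of 645) with other Ear genes, most of them (119) with Ear10. Chil4 ran at 2.103% to 2.45% of the Chil3 count in all 17 libraries, a 1.16-fold range while Chil3 itself varied 111-fold. Chil4 counts therefore held a nearly fixed proportion to Chil3, and the part of shared reads in this was not tested. Ear10 was 2.69% to 18.8% of Ear2. None of the windows of Fabp4 was shared with another Fabp gene, and the rest of the transcriptome was not searched.

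Chil3 measured 1694, 4763, 895 and 1581 CPM in Ephb4 control PBS and 165, 961, 271 and 399 CPM in Ephb4 control bleomycin. The 2 groups overlapped through bleomycin mouse 2 alone. In Ephb4 CKO mice it was 42.9, 863, 2544, 1411 and 781 CPM after PBS and 394, 61.6, 3277 and 1472 CPM after bleomycin. The Ephb4 CKO groups each held 1 library below all Ephb4 control libraries and 1 at 2544 CPM or more. The log2 fold change for bleomycin in Ephb4 control mice was -2.31 (SE 1.09, edgeR adjusted p = 0.351), and the genotype difference after bleomycin was 1.53 (SE 1.06, adjusted p = 0.391).

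Ear2 measured 139, 452, 170.4 and 115 CPM in Ephb4 control PBS and 7.89, 40.6, 62.9 and 94.2 CPM in Ephb4 control bleomycin, and those groups did not overlap. In Ephb4 CKO mice it was 0.395, 85.8, 973, 124 and 86.0 CPM after PBS and 65.6, 2.20, 891 and 68.1 CPM after bleomycin. In each Ephb4 CKO group mouse 3, both of series 11, lay far above every other mouse. The log2 fold change for bleomycin in Ephb4 control mice was -2.09 (SE 1.56, edgeR adjusted p = 0.524). The genotype difference after bleomycin was 2.32 (SE 1.57, adjusted p = 0.38) and became -0.18 without Ephb4 CKO bleomycin mouse 3.

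Fabp4, Pparg, Abcg1 and Cidec handle lipid. Fabp4 (chr3:10204088-10208576, minus strand) encodes a cytosolic fatty acid carrier. It measured 196, 336, 15.1 and 466 CPM in Ephb4 control PBS, where mouse 3 stood apart below the rest. In Ephb4 control bleomycin it was 4.93, 90.5, 95.4 and 65.3 CPM. In Ephb4 CKO mice it was 39.5, 153, 110.4, 271 and 115 CPM after PBS and 247, 139.7, 118 and 400.2 CPM after bleomycin. After bleomycin every Ephb4 CKO library lay above every Ephb4 control library, which held for no other gene of the 9. Of all genes tested, 11% were higher without overlap in this comparison. The genotype difference was 1.82 on the log2 scale (SE 0.89, edgeR adjusted p = 0.255), and 1.63 among series 12 libraries alone. For bleomycin in Ephb4 control mice it was -1.98 (SE 0.90, adjusted p = 0.342).

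Pparg (chr6:115360951-115490399, plus strand) encodes the lipid-sensing nuclear receptor on which alveolar macrophage identity depends. It measured 86.2, 98.4, 18.02 and 125 CPM in Ephb4 control PBS and 3.52, 34.6, 46.4 and 34.7 CPM in Ephb4 control bleomycin. Among PBS libraries, mouse 3 was again the low one. In Ephb4 CKO mice it was 13.9, 86.7, 76.3, 105 and 36.6 CPM after PBS and 81.9, 43.3, 97.2 and 134 CPM after bleomycin. The bleomycin groups of the 2 genotypes overlapped only through Ephb4 CKO mouse 2 and Ephb4 control mouse 3. The log2 fold changes were -1.46 (SE 0.73, edgeR adjusted p = 0.374) for bleomycin in Ephb4 control mice and 1.58 (SE 0.73, adjusted p = 0.244) for genotype after bleomycin.

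Abcg1 (chr17:31057675-31117988, plus strand) encodes an exporter of cholesterol to lipoproteins. It was the steadiest of the 9 genes after Pparg by its range, at 199 to 1229.7 CPM in Ephb4 control PBS, 26.9 to 533 in Ephb4 control bleomycin, 388 to 1079 in Ephb4 CKO PBS and 282 to 1080.25 in Ephb4 CKO bleomycin. Its log2 fold changes were -0.88 (SE 0.70) for bleomycin in Ephb4 control mice and 0.88 (SE 0.70) for genotype after bleomycin. Without Ephb4 control bleomycin mouse 1 the remaining libraries of that group held 326 to 533 CPM, inside the range of the PBS group.

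Cidec (chr6:113424634-113435760, minus strand) encodes a protein of the lipid droplet surface. It was above 10 CPM, the level of the filter, in 4 of 17 libraries, none of them Ephb4 control bleomycin. Its level was 8.99, 44.95, 4.24 and 7.72 CPM in Ephb4 control PBS and 0.436, 1.82, 2.34 and 2.40 CPM in Ephb4 control bleomycin. Those groups did not overlap. In Ephb4 CKO mice it was 0.296, 5.07, 37.7, 7.02 and 0.590 CPM after PBS and 2.37, 0.162, 41.1 and 10.8 CPM after bleomycin. The 3 libraries above 30 CPM were Ephb4 control PBS mouse 2, Ephb4 CKO PBS mouse 3 and Ephb4 CKO bleomycin mouse 3, all of series 11. Its log2 fold changes were -3.24 (SE 1.51, edgeR adjusted p = 0.349) for bleomycin in Ephb4 control mice and 2.96 (SE 1.49, adjusted p = 0.263) for genotype after bleomycin.

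Car4 (chr11:84957786-84966044, plus strand) encodes a membrane-anchored carbonic anhydrase, which capillary endothelium of the lung also makes. It measured 17.3, 110.2, 78.8 and 1.73 CPM in Ephb4 control PBS and 5.01, 2.01, 0.809 and 4.14 CPM in Ephb4 control bleomycin. In Ephb4 CKO mice it was 27.6, 3.32, 132, 7.93 and 2.85 CPM after PBS, and after bleomycin 0.528, 0, 138 and 0.893 CPM, where the 0 allows up to 3 counts. Only 4 libraries exceeded 50 CPM, 3 of them with Cidec above 30 CPM, and all 4 were of series 11. The genotype difference after bleomycin was 3.55 on the log2 scale (SE 1.999, edgeR adjusted p = 0.302) and -2.66 without Ephb4 CKO bleomycin mouse 3, so that 1 library set its direction. The 10 endothelial genes of the list fixed beside the 9 summed to 61.0 to 398 CPM, and their part in the Car4 level was not tested.

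**Figure D1:**
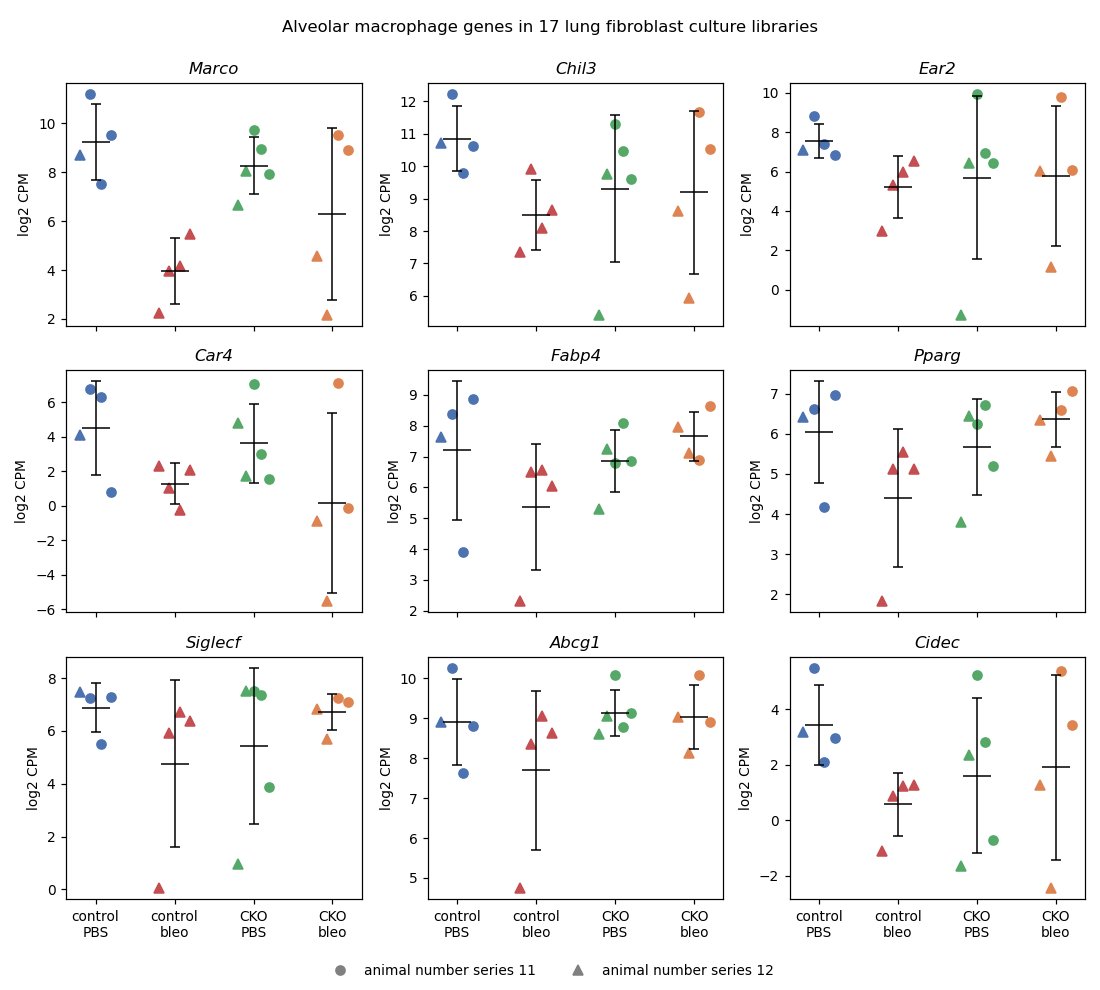
Each panel shows 1 of the 9 genes and each point 1 library (log2 CPM with a prior count of 2, by group), with lines for the group mean ± SD. Circles are series 11 and triangles series 12. Marco, Ear2 and Cidec do not overlap between PBS and bleomycin in Ephb4 control mice, Fabp4 does not overlap between genotypes after bleomycin, and the Ephb4 CKO bleomycin group splits by number series for every gene but Fabp4 and Abcg1. For Ear2 the split is only between 6.04 (mouse 1, series 12) and 6.09 (mouse 4, series 11). In Ear2 and Car4 mouse 3 alone stands far above the rest of that group.

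Bleomycin against PBS in Ephb4 control mice asked how the 9 genes differed with injury while EphB4 was present. All 9 had log2 fold changes below 0, from -5.47 (Marco) to -0.88 (Abcg1), with a median of -2.09, where 55.5% of all genes tested lay below 0 and their median was -0.06. None of the 9 passed an adjusted p of 0.05 in edgeR, nor did any of the 10481 genes (0% called). At an unadjusted p under 0.05, 3 of 9 (Marco, Fabp4 and Cidec) were lower, against 7.98% of all genes (1494 genes in either direction). The groups did not overlap for 3 of 9 (Marco, Ear2 and Cidec), against 3.2% of all genes that were lower without overlap. DESeq2 called 166 genes (1.6%), of which Marco was the only one among the 9.

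Ephb4 CKO against control after bleomycin used the same Ephb4 control bleomycin libraries, so the values of the 2 comparisons are not independent. All 9 genes had differences above 0, from 0.88 (Siglecf) to 3.92 (Marco), with a median of 1.82, where 50.7% of all genes lay above 0 and their median was 0.01. None passed in edgeR (0% of all genes called). At an unadjusted p under 0.05, 2 of 9 (Marco and Pparg) were higher, a share to be read against 11% of all genes (2119 genes in either direction). DESeq2 called 399 genes (3.84%), again with Marco alone among the 9. Without Ephb4 CKO bleomycin mouse 3 the median of the 9 genes was 0.72. With the 3 libraries of unmatched sex left out, it was 3.05 with Marco at 4.74 (and -2.18 for bleomycin in Ephb4 control mice), since those 3 include the 2 Ephb4 CKO libraries with low Marco. That leaves Ephb4 CKO mice 3 and 4, both of series 11, against Ephb4 control mice 1, 3 and 4, all of series 12. Genotype and number series cannot be told apart in that fit.

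The other comparisons gave smaller values. After PBS, the Ephb4 CKO cultures differed from control by -1.23 (Marco) to 0.21 (Ear2) with a median of -0.59, 0 of 9 had an unadjusted p under 0.05 (1.99% of all genes, 209 genes) and edgeR and DESeq2 called 0 and 1 of all genes (0% and 0.00962%), none of them among the 9. Bleomycin against PBS within Ephb4 CKO mice gave -0.32 (Marco) to 0.72 (Fabp4) with a median of 0.07, 0 of 9 had an unadjusted p under 0.05 (0.964% of all genes, 101 genes), and edgeR and DESeq2 again called 0 and 1 of all genes (0% and 0.00962%), none of them among the 9. With these standard errors such values do not show that the levels were alike. The bleomycin difference within Ephb4 CKO mice also depended on the number series. In series 12 alone, which holds mice 1 and 2 of each Ephb4 CKO group, Marco was -3.70 and the median of the 9 genes -0.35. In series 11 alone the median was 0.54, with all 9 genes above 0. The interaction, which tests whether the bleomycin difference itself differed between genotypes, was above 0 for all 9 genes (49.7% of all genes) with a median of 2.52. For Marco it was 5.15 (SE 1.67) and for Fabp4 2.70 (SE 1.20), each with an edgeR adjusted p of 0.916. These were the 2 of 9 with an unadjusted p under 0.05, in a comparison where 1.89% of all genes were higher at that level and none passed after adjustment (0% of all genes in edgeR and in DESeq2, 363 genes at an unadjusted p under 0.05). With the number series as a covariate the median interaction was 1.02, and 0 of 9 genes had an unadjusted edgeR p under 0.05. The interaction of Marco was smaller in that fit than in any other alternative fit over groups or covariates.

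**Figure D2:**
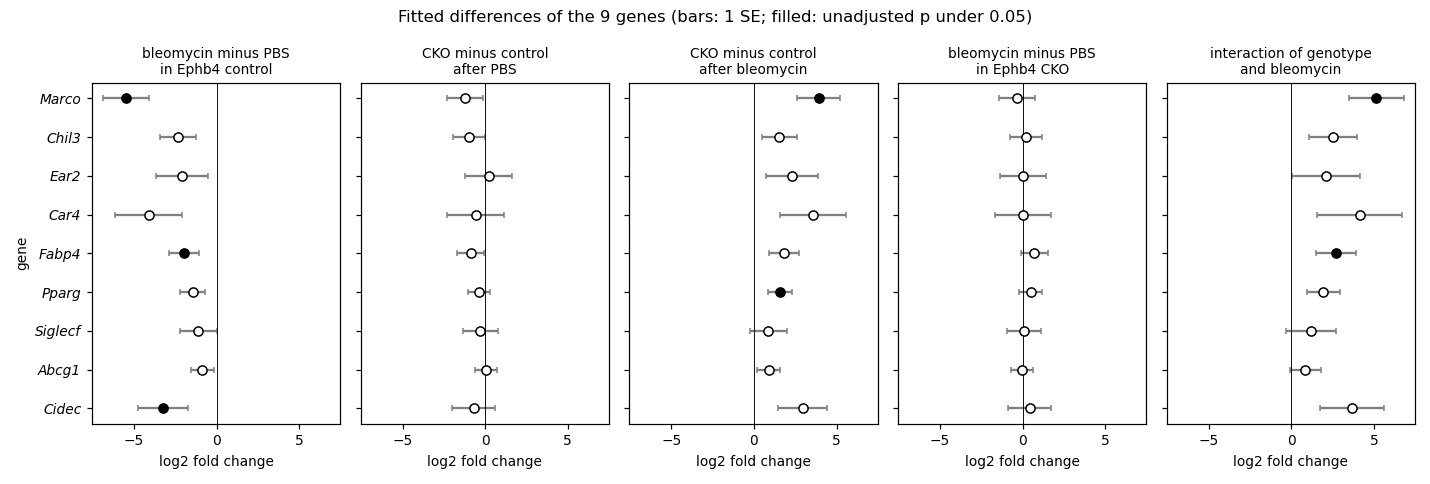
Fitted log2 differences of the 9 genes in each of the 5 comparisons, with bars of 1 SE, and filled points where the unadjusted edgeR p is under 0.05. The 9 genes lie below 0 for bleomycin in Ephb4 control mice and above 0 for genotype after bleomycin and for the interaction, and no point passes after adjustment.

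Over the 17 libraries Pearson's r of log2 CPM between the 36 pairs ranged from -0.20 (Car4 and Fabp4) to 0.94 (Fabp4 and Pparg), with a median of 0.64, and 34 pairs were above 0. With group means removed the median was 0.63. The pairs share library composition, and the values are descriptions. Pparg went with Siglecf (0.90) and Abcg1 (0.81), while Chil3 went with Ear2 (0.92), Cidec (0.91) and Marco (0.79), and Marco with Cidec (0.80). Other pairs were close to these, such as Siglecf with Ear2 and with Cidec (0.72 each), Siglecf with Abcg1 (0.71) and Marco with Abcg1 (0.67) or Ear2 (0.65). Ephb4 CKO PBS mouse 1 held little Ear2 (0.395 CPM), Chil3 (42.9 CPM) and Siglecf (1.90 CPM) but 388 CPM of Abcg1. By Pearson's r over the 17 libraries, Tspan32 (0.963), Il16 (0.957), Gsr (0.941), Gmpr (0.940) and Pag1 (0.937) were the genes most like the mean standardised level of the 9, and Zfp608 (0.935), Chpt1 (0.908), Cryzl2 (0.902), Adgb (0.901) and Acp5 (0.901) those most like Marco.

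**Figure D3:**
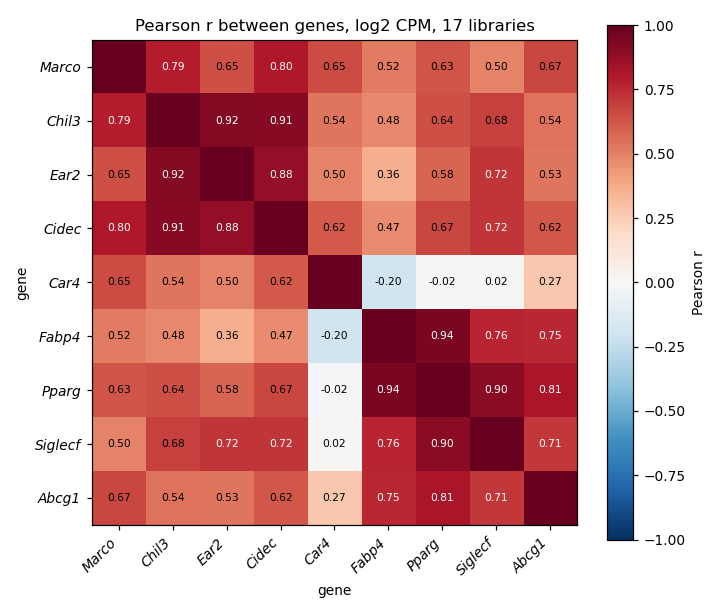
Pearson's r of log2 CPM between each pair of the 9 genes over the 17 libraries. The highest value is 0.94 for Fabp4 and Pparg and the lowest -0.20 for Car4 and Fabp4, and the row of Car4 is the palest.

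**Figure D4:**
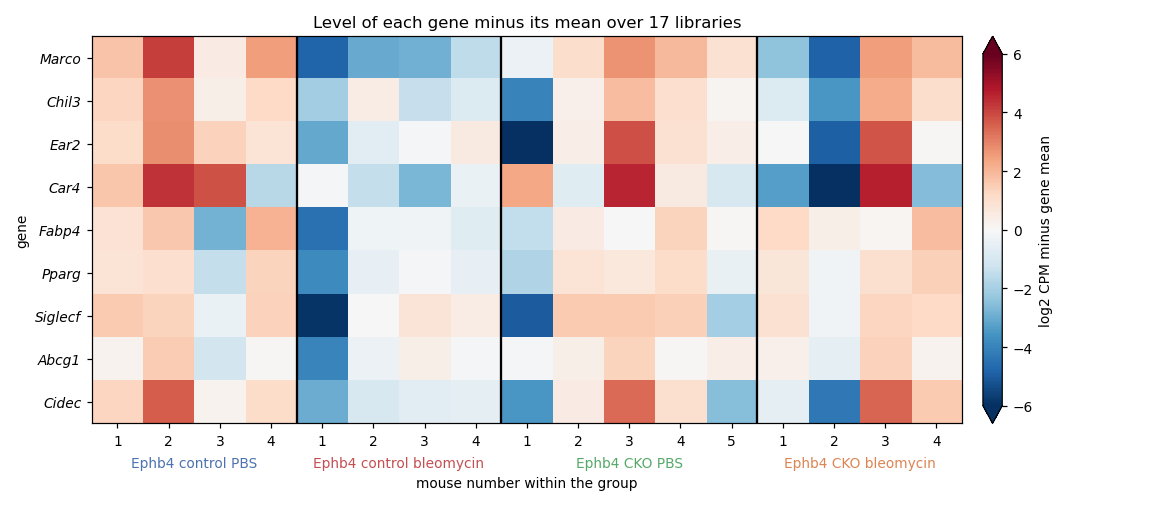
Log2 CPM of each gene minus its mean over the 17 libraries, with genes as rows and libraries as columns by group. Ephb4 control bleomycin mouse 1 is well below the mean for every gene but Car4, and the libraries numbered 3 in both Ephb4 CKO groups are above it for Chil3, Ear2, Car4 and Cidec.

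All 4 Ephb4 control bleomycin libraries were of series 12, whereas mouse 1 was the only Ephb4 control PBS library of that series. With group in the model, series 11 exceeded series 12 by 3.01 (Car4), 2.67 (Ear2), 2.62 (Cidec), 2.504 (Marco) and 1.90 (Chil3) on the log2 scale, and by 0.66 (Abcg1), 0.58 (Fabp4), 0.47 (Pparg) and 0.24 (Siglecf) for the rest. None of the 9 passed after adjustment, while 6 of 10481 genes did. Marco, Chil3, Cidec and Ear2 had an unadjusted edgeR p under 0.05, as did 12.6% of all genes (1323 genes, either direction). With the series as a covariate the median of the 9 genes was -1.12 for bleomycin in Ephb4 control mice and 0.65 for genotype after bleomycin. For bleomycin in Ephb4 control mice Marco was -3.59 in that fit. Within series 12 the genotype difference after bleomycin had a median of -0.44. There 4 of 9 genes stayed above 0, namely Fabp4 (1.63), Pparg (1.10), Siglecf (0.47) and Abcg1 (0.36), and 5 of 9 lay below, namely Car4 (-3.48), Chil3 (-0.97), Ear2 (-0.57), Marco (-0.50) and Cidec (-0.44). Within series 11 the comparison has no Ephb4 control library.

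**Figure D5:**
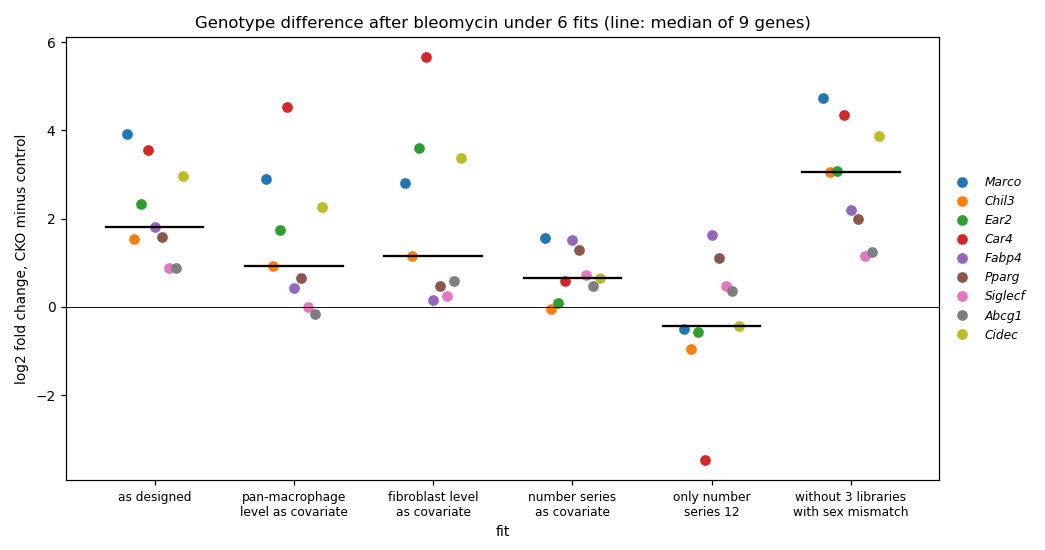
Log2 difference of Ephb4 CKO against Ephb4 control after bleomycin for each of the 9 genes under 6 fits, with a line at the median. The median is 1.82 in the fit over all libraries, 0.65 with the number series as a covariate and -0.44 in series 12 alone, where Marco, Chil3, Ear2, Car4 and Cidec lie below 0.

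Macrophage and fibroblast genes moved with the same comparisons. In bulk cultures fewer macrophages and less of a transcript per macrophage cannot be told apart. The 15 pan-macrophage genes summed to 10323 to 43625 CPM in Ephb4 control PBS, 1404 to 20476 in Ephb4 control bleomycin, 23926 to 41844 in Ephb4 CKO PBS and 23752 to 43535 in Ephb4 CKO bleomycin. The Ephb4 control bleomycin libraries thus lay below every Ephb4 CKO library. The 14 fibroblast genes summed to 46.4 to 7705, 5886 to 12839, 88.4 to 2345 and 76.1 to 1923 CPM in the same order, and all 4 Ephb4 control bleomycin libraries lay above every Ephb4 CKO library. Adipoq and Lep, which define adipocytes that also make Fabp4, Pparg and Cidec, were at 0 in all 17 libraries. The 7 adipocyte genes of the list summed to 0.103 to 7.75 CPM. Of these, Plin4 held 800 counts in Ephb4 CKO bleomycin mouse 2. Plin1 held 356 counts in Ephb4 control PBS mouse 2, 106 in Ephb4 CKO PBS mouse 3 and 128 in Ephb4 CKO bleomycin mouse 3. Those were the libraries highest in Cidec, and Plin1 held at most 16 counts elsewhere. Lymphocyte genes summed to at most 26.1 CPM. Neutrophil genes summed to 25.5 to 162 CPM except in mice 1 and 5 of Ephb4 CKO PBS. Mouse 5 held 311 CPM, and mouse 1 held 9709 CPM, of which Mmp8 was 9615 CPM.

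With the library's mean log2 CPM of pan-macrophage genes as a covariate, the median of the 9 genes was -1.76 for bleomycin in Ephb4 control mice and 0.92 for genotype after bleomycin. Marco was -4.65 and 2.89 in that fit, while for genotype Siglecf was 0.01 and Abcg1 -0.15. With the fibroblast genes as the covariate the medians were -1.88 and 1.15. Set against the pan-macrophage mean within each library, Abcg1 held nearly level across the 4 groups (0.42, 0.35, 0.05 and 0.01 on the log2 scale), whereas Marco stood at 0.75 ± 1.04, -3.39 ± 0.94, -0.81 ± 1.54 and -2.72 ± 3.40 (SD, n = 4, 4, 5 and 4). The part of cell makeup in the differences between groups was not tested beyond these fits.

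Other genes listed for alveolar macrophages gave like counts. Of 20 further alveolar macrophage genes, all 20 were below 0 for bleomycin in Ephb4 control mice (median -1.71, 7 with an unadjusted p under 0.05) and all 20 above 0 for genotype after bleomycin (median 1.57, 5 with an unadjusted p under 0.05). At that level 7.98% of all genes were lower for bleomycin and 11% higher for genotype. Il1rn, the IL-1 receptor antagonist, had -3.21 (SE 0.82) and 2.77 (SE 0.81), the keratin Krt79 -5.84 (SE 2.04) for bleomycin and the ribonuclease Ear1, which shares sequence with Ear2, 5.47 (SE 2.07) for genotype. None of the 20 passed in edgeR (lowest adjusted p = 0.268 and 0.196). After PBS the same 20 genes divided evenly between the genotypes, with 11 above 0 and a median of 0.07. The keratin Krt19, 1 of the 20, did not follow the macrophage level. It held 18636 counts in Ephb4 control bleomycin mouse 1, the library lowest in pan-macrophage genes, and 3319 to 7788 in the rest of that group. Whether other cell types contributed to the 20 genes was not tested.

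Genes of lipid handling and PPARγ signalling followed the same directions. For bleomycin in Ephb4 control mice 9 of 11 kept were below 0 (median -1.04), 3 of them with an unadjusted p under 0.05 where 7.98% of all genes were lower at that level. For genotype after bleomycin 10 of 11 were above 0 (median 1.41), 7 of them with an unadjusted p under 0.05 where 11% of all genes were higher at that level. The fatty acid receptor Cd36 had -2.59 (SE 0.68) and 2.80 (SE 0.68), and the lipoprotein lipase Lpl -3.12 (SE 0.75) and 2.85 (SE 0.74). None passed after adjustment (lowest edgeR adjusted p = 0.268 and 0.187).

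Genes upstream of Pparg in the GM-CSF and TGF-β pathways and transcription factors of macrophages differed less in size. All 12 were below 0 for bleomycin in Ephb4 control mice (median -0.96, 4 with an unadjusted p under 0.05) and 10 of 12 above 0 for genotype after bleomycin (median 1.09, 6 with an unadjusted p under 0.05). The shares of all genes at that level were 7.98% lower for bleomycin and 11% higher for genotype. The GM-CSF receptor chain Csf2rb2 had -1.52 (SE 0.55) and 1.70 (SE 0.55), and the transcription factor Bhlhe41, which restrains proliferation of alveolar macrophages, -1.43 (SE 0.52) and 1.62 (SE 0.52). None of the 12 passed after adjustment (lowest edgeR adjusted p = 0.315 and 0.207).

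The broader lists set the scale for these values. Pan-macrophage genes kept were all 14 below 0 for bleomycin in Ephb4 control mice (median -0.84, 0 with an unadjusted p under 0.05) and all 14 above 0 for genotype after bleomycin (median 1.23, 3 with an unadjusted p under 0.05). Again 7.98% of all genes were lower for bleomycin and 11% higher for genotype at that level. Genes of interstitial and monocyte-derived macrophages were opposite in sign to the 9 in the first of these comparisons and mixed in the other: 10 of 12 were above 0 for bleomycin in Ephb4 control mice (median 1.36) and 8 of 12 above 0 for genotype after bleomycin (median 0.14). In that list Cx3cr1, a chemokine receptor, had 2.13 (SE 0.95) for bleomycin, and Ly6c2, a marker of inflammatory monocytes, -2.62 (SE 1.09) for bleomycin and 4.19 (SE 1.16) for genotype. Not every gene of that list followed the macrophage level. Tmem119 was highest, at 6922 counts, in Ephb4 control bleomycin mouse 1, the library lowest in pan-macrophage genes (1404 CPM summed). C1qa held 297 counts there and 7663 to 31375 in the rest of that group. The part of other cell types in the list was not tested. Fibroblast genes were opposite in sign to the 9, all 12 above 0 for bleomycin in Ephb4 control mice (median 2.32) and all 12 below 0 for genotype after bleomycin (median -2.42). Medians of the remaining lists in these 2 comparisons were -0.18 and -0.79 for 10 endothelial genes, -0.73 and 1.178 for 4 neutrophil genes, -0.95 and 0.37 for 7 epithelial genes, and 0.27 and -0.81 for 5 proliferation genes, while no adipocyte, eosinophil or lymphocyte gene passed the filter on low values. No gene of these lists passed after adjustment in edgeR.

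Promoter sequence (RefSeq, GRCm38.p6, 250 bases before to 50 after the annotated start) was at hand for 7 of the 9 genes, and not for Fabp4 or Abcg1. Both strands were searched for GAGGAAGT and its core GAGGAA, the site of PU.1, the lineage factor of macrophages, and for AGGTCANAGGTCA, the site of PPARγ with its partner, and its single repeat AGGTCA. The longer motifs were in none of the members' promoters, against 3.11% and 0.0399% of 32544 promoters. The 7 genes had 10 promoters between them. The core, which was added after the longer motif gave no match, was in 3 of the 10, against 28.1% of all promoters. These belonged to Marco, Siglecf and Pparg. AGGTCA was in 2 of the 10, both of Pparg, against 16.2%. Neither share stood far from that of all promoters. The promoters of Marco (chr1:120504975-120505274, minus strand), Siglecf (chr7:43351091-43351390, plus strand) and Pparg (chr6:115362099-115362398, plus strand) are shown with these matches in capitals, at first bases 146, 65 and, for Pparg, 240 and 9 bases before the start. In Siglecf the match reads on the opposite strand.
Marco: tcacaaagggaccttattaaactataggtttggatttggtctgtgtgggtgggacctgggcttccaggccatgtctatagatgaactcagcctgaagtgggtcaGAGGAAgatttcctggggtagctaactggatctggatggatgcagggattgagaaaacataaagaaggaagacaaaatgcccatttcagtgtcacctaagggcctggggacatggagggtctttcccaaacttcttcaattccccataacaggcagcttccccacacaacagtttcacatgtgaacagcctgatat
Siglecf: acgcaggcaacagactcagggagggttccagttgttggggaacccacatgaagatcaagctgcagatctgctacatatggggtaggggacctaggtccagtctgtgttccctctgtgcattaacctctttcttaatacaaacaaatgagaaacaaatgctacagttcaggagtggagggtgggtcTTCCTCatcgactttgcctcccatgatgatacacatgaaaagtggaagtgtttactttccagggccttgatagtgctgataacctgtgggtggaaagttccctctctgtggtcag
Pparg: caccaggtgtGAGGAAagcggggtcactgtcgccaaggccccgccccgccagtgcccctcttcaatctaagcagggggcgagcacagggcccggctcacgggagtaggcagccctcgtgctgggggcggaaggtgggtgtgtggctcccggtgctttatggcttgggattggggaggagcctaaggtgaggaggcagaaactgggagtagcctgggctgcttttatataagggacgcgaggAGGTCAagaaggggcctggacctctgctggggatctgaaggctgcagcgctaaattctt
A match is a run of letters and not a measured site.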

How the data were processed

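Total RNA-Seq was measured in passage 1 lung fibroblast cultures of 17 mice, grouped by the genotype and treatment in the sample labels. The authors trimmed reads with Cutadapt, aligned them to GRCm38 with strand-specific HISAT2 (2.1.0) and assembled known genes with StringTie, whose script turned coverage into the deposited whole-number counts, so that coverage was divided between near-identical copies and overlapping genes. The counts were not normalised before deposit. The 2 sequencing groups (8 and 9 libraries) are not assigned to libraries in the sources used here, so no term for them could be fitted.

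Counts were analysed here with edgeR 4.0.16 (R 4.3.3): TMM, genes with a CPM above 10 in at least 2 libraries (10481 of 55421), 1 mean per group over all 17 libraries, the quasi-likelihood test, and p-values adjusted by Benjamini-Hochberg over all genes kept, at 0.05. The common dispersion of 0.311 is a biological coefficient of variation of 0.557. Each SE was the fold change divided by the root of its F value. Log2 CPM used a prior count of 2, a count of 0 was read as up to 3 counts (counting error only), and RPKM used exon lengths of GENCODE M21, which matched 55240 of the identifiers. The procedure was tested on simulated data. Replicates are separate mice, and their numbers pair nothing.

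The 9 genes and all other gene lists were chosen with earlier results of these data known. Genes named are all 9, Ephb4, and from each other list the 2 with the smallest p per comparison or its first gene, with the 5 genes most like the 9 and like Marco, and paralogs. A few more from the lists (Epx, Adipoq, Lep, Plin1, Plin4, Krt19, Tmem119 and Mmp8) were named after their values were seen. Alternatives were DESeq2 1.42.0, limma 3.58.1 (voom), other filters and scaling, covariates (labelled sex, number series, column run, marker means), subsets and leaving out each library.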

Additional observations from a re-analysis of the deposited data

Results flagged for a closer look

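Within each group of 4 or 5 libraries, the lowest or highest library was set against the rest by its gap as a share of the group's range (Dixon's criterion). Of 36 groups of libraries (9 genes in 4 groups), 7 held a library that stood apart, where chance gives about 1 in 20 for a single group. The 9 genes come from the same libraries and vary together, so the 36 are not independent and the 2 rates cannot be compared directly. In Ephb4 control bleomycin, mouse 1 was low for 5 of the 9 genes: Fabp4 at 4.93 CPM (next 65.3), Pparg at 3.52 (next 34.6), Siglecf at 1.01 (next 60.1), Abcg1 at 26.9 (next 326) and Cidec at 0.436 (next 1.82). The same library had the lowest Lyz2 (875 CPM) and the lowest mean log2 CPM of pan-macrophage genes (4.98, against 7.50 to 9.95 elsewhere). In Ephb4 CKO PBS, mouse 1 was low for Chil3 at 42.9 CPM (next 781), in a library whose pan-macrophage mean was 9.5. In Ephb4 control PBS, mouse 3 was low for Siglecf at 45.4 CPM (next 151). Without both mice numbered 1, the median log2 difference of the 9 genes was -1.73 for bleomycin in Ephb4 control mice and 1.43 for genotype after bleomycin, an alternative chosen after seeing the data.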

How the results depend on the processing

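No paired analysis was possible because the animal numbers in the labels name single mice and no 2 groups compared share as many as 2 of them. In the comparisons below, A is bleomycin against PBS in Ephb4 control mice, B Ephb4 CKO against control after PBS, C the same after bleomycin, D bleomycin against PBS in Ephb4 CKO mice and E the interaction. Values are log2 differences, and the cause was not tested. The other fits were planned, and 3 were added after seeing the data (series 11 alone, DESeq2 with column run, which is the place of a library in the first 8 or last 9 columns of the table as a stand-in for the sequencing groups, and without both mice numbered 1). DESeq2 called 166, 1, 399 and 1 genes in A to D, and with column run 231 in A, 387 in C, 1 in D and 1 in E, each time with 1 of the 9 (Marco) in A and in C, for which the adjusted p with column run was 8.04e-06 and 0.0293. Series 12 alone gave 4 genes in D and a median of -0.44 over the 9 genes in C. Leaving out each library, edgeR called 0 to 2 genes in A, 0 to 1 in C and none of the 9, whose median ran from -2.34 to -1.61 in A, -1.53 to -0.19 in B, 0.72 to 2.22 in C, -0.81 to 0.64 in D and 1.5 to 3.04 in E. The lowest adjusted p of Marco was then 0.0682 in A and 0.144 in C.

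Signs turned as follows. In A, Fabp4 was 0.37 with the fibroblast covariate. In B, Ear2 was -1.87 (voom), -0.98 (labelled sex as covariate), -0.22 (number series), -0.15 (column run), -0.50 (fibroblast) and -0.15 (DESeq2 with run), Abcg1 -0.28 (labelled sex) and -0.24 (pan-macrophage), Car4 0.071 (run) and 0.079 (DESeq2 with run), and Siglecf 0.017 (series 11) and 0.024 (without both mice 1). In C, Car4 was -1.996 (voom), Chil3 -0.056 (number series), Abcg1 -0.15 (pan-macrophage), and series 12 alone gave Marco -0.50, Chil3 -0.97, Ear2 -0.57, Car4 -3.48 and Cidec -0.44. In D, Car4 was -0.0028 (DESeq2), -0.0033 (RLE), -0.00098 (no filter), -0.0052 (only the groups compared), -4.70 (voom), -0.31 (labelled sex), -1.12 (number series), -5.88 (series 12), -1.33 (run), -0.0092 (pan-macrophage), -1.36 (DESeq2 with run) and -0.059 (without both mice 1). Chil3 in D was -0.051 (voom), -0.010 (number series), -1.0 (series 12), -0.47 (run and DESeq2 with run) and -0.11 (without both mice 1). Cidec in D was -0.23 (voom and run), -1.09 (series 12) and -0.24 (DESeq2 with run). Ear2 in D was -0.28 (labelled sex), -0.35 (series 12), -0.37 (run and DESeq2 with run), -0.036 (pan-macrophage) and -0.31 (without both mice 1). Siglecf in D was -0.14 (series 12), -0.32 (pan-macrophage) and -0.25 (without both mice 1), Marco 0.62 (without the 3 libraries of unmatched sex) and 0.19 (series 11), and Abcg1 0.34 and 0.14 in the same fits. In E, Car4 was -1.39 (voom).

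Leaving out each library in turn, ranges that crossed 0 were, in B, Ear2 -1.57 to 0.83, Car4 -2.32 to 0.053, Siglecf -0.57 to 0.02, Abcg1 -0.28 to 0.69 and Cidec -2.36 to 0.53. In C they were Ear2 -0.18 to 2.79 and Car4 -2.66 to 3.96. In D they were Marco -1.19 to 0.17, Chil3 -0.81 to 0.75, Ear2 -2.49 to 1.79, Car4 -6.20 to 1.73, Siglecf -0.24 to 0.35, Abcg1 -0.49 to 0.29 and Cidec -1.19 to 2.08. In E they were Ear2 -0.40 to 3.87 and Car4 -2.08 to 5.84. Marco stayed below 0 in A (-6.17 to -4.41) and above 0 in C (3.05 to 4.62) in these fits.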

Other observations

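Among the ribonuclease genes related to Ear2, Ear1 was 4.28% to 81.2% of the Ear2 count (median 26.8%) and Ear6 3.0% to 5856% (median 26.5%) over the 17 libraries. The highest Ear6 ratio was in Ephb4 CKO PBS mouse 1, where Ear2 itself was 0.395 CPM.

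After PBS, genes of interstitial and monocyte-derived macrophages were above 0 in 10 of 12 cases for Ephb4 CKO against control (median 1.87), among them Ms4a7 at 3.37 on the log2 scale, while the 9 alveolar macrophage genes had a median of -0.59. The median of 1.87 rests on few libraries, since the list summed to 482, 81.0, 199, 125 and 3754 CPM in Ephb4 CKO PBS mice 1 to 5, against 105 to 228 CPM in Ephb4 control PBS, and Ms4a7 was 269, 6.89, 4.75, 15.4 and 383 CPM in those 5 mice. None passed after adjustment in edgeR, and the difference between the 2 lists was not tested.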
